A study of Mus musculus with 441 samples.

Results

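Regulatory T cells (Tregs) and activated CD4 T cells were compared gene by gene within a single tetramer sort of mouse islet T cells. The 2 classes were taken by name from the authors' annotation of the sort labelled Ins, in which 115 cells were called Treg cells and 25 were called activated CD4 T cells. These 140 cells were part of 441 in the data set, 257 of the Ins sort and 184 of a sort labelled HIP. Each cell came from pancreatic islets dissociated after collagenase digestion, had bound a tetramer (linked MHC molecules carrying a peptide) meant for T cells reactive to beta cells, and was profiled alone by full-length RNA sequencing (SMART-Seq2). What HIP and Ins stand for is not spelled out in the labels. The labels give no strain, age, treatment or animal for any group, so each class of a sort counted as 1 sample and differences have no replicate check. The 61 T follicular helper cells of the Ins sort and the 61 activated CD4 T cells of the HIP sort are set beside the pair where they show what is shared or different.

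Tregs are CD4 T cells that restrain other lymphocytes. The transcription factor Foxp3 maintains their program, which includes the interleukin 2 receptor, the inhibitory receptor CTLA-4 and the suppressive cytokine interleukin 10. Tregs of tissues often carry the integrin CD103, made of the alpha chain Itgae and the beta chain Itgb7, which binds E-cadherin on epithelial cells. Activated CD4 T cells have met their antigen and become effector cells that secrete cytokines, among them interleukin 21, interferon gamma and members of the tumour necrosis factor family. Both kinds of cell are known to lose receptors of lymph node recirculation and to gain those of inflamed tissue. The annotation gives each class a cluster number, so the classes are taken as cut from the expression values compared here, and every difference between them is a description without a test.

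The promoters of 4 genes that set the classes apart are shown first, the 2 leading named genes on each side with a promoter available. Ly6a and Itgae, with larger differences on the Treg side, had none and are not shown. Foxp3 and cathepsin S (Ctss) were on the Treg side, and Ms4a4b and annexin A2 (Anxa2) on the activated side. Each line gives the 250 bases before a RefSeq transcription start (GRCm38.p6), 5′ to 3′ on the gene's strand, and capitals mark a match to 1 of 6 searched motifs on either strand.
Foxp3, chrX:7579426-7579675, plus strand: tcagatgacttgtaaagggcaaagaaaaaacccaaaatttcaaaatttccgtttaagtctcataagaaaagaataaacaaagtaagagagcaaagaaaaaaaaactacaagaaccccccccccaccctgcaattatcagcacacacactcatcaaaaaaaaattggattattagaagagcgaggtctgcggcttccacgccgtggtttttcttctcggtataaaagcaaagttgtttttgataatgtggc
Ctss, chr3:95526536-95526785, plus strand: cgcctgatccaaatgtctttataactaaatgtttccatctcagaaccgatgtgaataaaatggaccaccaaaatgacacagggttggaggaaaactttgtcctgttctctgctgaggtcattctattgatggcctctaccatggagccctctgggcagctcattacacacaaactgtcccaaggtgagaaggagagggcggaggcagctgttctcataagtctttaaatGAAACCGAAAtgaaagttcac
Ms4a4b, chr19:11443308-11443557, plus strand: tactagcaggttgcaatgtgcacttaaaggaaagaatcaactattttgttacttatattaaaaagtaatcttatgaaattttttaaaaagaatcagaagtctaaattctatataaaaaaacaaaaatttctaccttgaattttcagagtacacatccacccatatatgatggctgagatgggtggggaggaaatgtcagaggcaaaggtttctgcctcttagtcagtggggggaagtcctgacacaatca
Anxa2, chr9:69453433-69453682, plus strand: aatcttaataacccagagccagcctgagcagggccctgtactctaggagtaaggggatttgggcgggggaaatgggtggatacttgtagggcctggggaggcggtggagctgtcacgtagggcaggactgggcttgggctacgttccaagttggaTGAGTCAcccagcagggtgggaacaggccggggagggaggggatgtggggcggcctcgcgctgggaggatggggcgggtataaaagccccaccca
The capitals in Ctss are GAAA, then NN, then GAAA, a motif of interferon regulatory factors, and those in Anxa2 are TGANTCA, the motif of AP-1. No other motif of the 6 was found in these lines, and the AP-1 match of Ms4a4b lay after the start, at base 273 of the 300 searched. Foxp3 has 2 starts in the table, and the first is shown.

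Promoters of 300 bases, 250 before and 50 after the start, were found in the table for 253 genes called higher in Tregs, 165 genes called higher in activated cells (the call rule follows with the counts) and 2175 of the genes compared, of 27025 promoters in all. The interferon regulatory factor motif was held by 3.95%, 1.21%, 3.95% and 3.49% of these sets in that order. The STAT motif TTCNNNGAA was held by 11.1%, 4.24%, 7.31% and 8.47%, and the cyclic AMP element TGACGTCA by 4.35%, 2.42%, 2.94% and 1.88%. The AP-1 motif was found in 4.74%, 6.06%, 5.66% and 7.93%, and the kappa B motif (GGGA, then N, then TTTCC) in 1.19%, 1.21%, 0.506% and 0.385%. The forkhead motif GTAAACA was found in 1.19% of promoters on the Treg side and 3.03% on the activated side. It was in 2.39% of the genes compared and 3.55% of all promoters. Some of these shares rest on few promoters. On the Treg and activated sides the forkhead motif was in 3 and 5 promoters and the kappa B motif in 3 and 2. On the activated side the interferon regulatory factor motif was in 2 and the cyclic AMP element in 4. The sets are of unequal size, and a match is a description of letters only.

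Levels are in TPM, transcript abundances corrected for length and scaled to a total of 1000000 per cell, and a cell counted as having a gene from 1 TPM upward. Shares of cells carry exact Clopper-Pearson 95% intervals that cover counting error only. Where no cell had a gene, a limit of 3 cells is given beside the upper end of that interval. The SD beside a mean is that of single cells and holds no replicate error. A median of 2017 genes per cell was detected in Tregs (range 694 to 3399) and of 1862 in activated cells (range 1205 to 3017), against 1963 in T follicular helper cells and 2075 in activated cells of the HIP sort. Median shares of Rn45s, the precursor of ribosomal RNA, were 2.42% of TPM in Tregs and 2.24% in activated cells. Gapdh was at 0 in 10 Tregs and 4 activated cells, so a 0 can be a transcript missed in capture. The cell numbers fall in 3 blocks of 96 for the Ins sort, which may be plates although the labels do not say so, with 31, 40 and 44 Tregs and 8, 7 and 10 activated cells. The blocks are used to show spread and are not replicates.

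Differences are of mean log2(TPM + 1), Treg minus activated, and where many cells hold 0 they follow the share of cells with the gene more than its level. Genes entered the comparison when 25% of either class had them, which left 2728 of 13561 genes (20.1%). A gene was called when the difference was at least 1 in size with 1 sign in all 3 blocks. By that rule 315 genes (11.5%) were higher in Tregs and 202 (7.4%) higher in activated cells. The exact intervals of the detected share did not overlap for 41 genes (1.5%) on the Treg side, all of them also called, and for 18 (0.66%) on the activated side, of which 15 were called. A gene that reaches 25% in 1 class only enters through the class where it is more frequent, so the median of a gene list is also given over all its genes in the table, beside a median of 0.01 over all 13561. Of the genes compared, 81.0% were not called. Against these counts, 1240 genes (45.5%) differed by less than 0.5, and the median size of the difference was 0.58. With a pseudocount of 10 the calls numbered 158 and 88. With block 1, 2 or 3 left out, so that 2 signs had to match in place of 3, they took 14.3%, 19.5% and 15.8% of the genes compared on the Treg side and 15.1%, 11.7% and 14.0% on the activated side. The 15 leading Treg genes were called in each of these settings.

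Much of the spread at this depth was also present within a class. Between pairs of Treg blocks, 22.8% to 31.8% of the same genes differed by at least 1, with the largest difference at 4.33, and intervals of the share were apart for 14, 24 and 50 genes. Between blocks of activated cells, which held 7 to 10 cells, 50.0% to 53.2% differed by at least 1, with largest differences of 8.47, 6.66 and 7.96. Between all Tregs and all activated cells the figure was 28.0%. Of the 2728 genes, 5 differed by more than the largest gap between Treg blocks: Ly6a, Itgae, Foxp3, Ctss and, on the activated side, Ms4a4b. None of these 5 exceeded the largest gap between any pair of activated blocks, which rests on few cells. For every other gene the call stands on the sign in the blocks, and differences of that size also occurred between blocks of Tregs.

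Both class labels were checked against their markers. T cell genes were present in both, with Cd3e in 99.1% and 96.0% and Cd4 in 82.6% and 96.0% of Tregs and activated cells. Of the markers of an activated effector cell, Cxcr6 was detected in 68.0% of the activated class, Nkg7 in 64.0% and Cd44 in 60.0%. Cxcr3 was detected in 52.0%, Icos in 48.0%, and Bhlhe40 and Ccl5 in 32.0% each. Cd69, Ifng, Tbx21, Il12rb2 and Tnf were in 8.00% each and Gzmb in 4.00%. The early activation antigen (Cd69) and interferon gamma were thus rare in the activated class. Cxcr6 and Cd44 were less frequent in Tregs, at 53.0% and 35.7%. Nkg7, Cxcr3 and Icos were more frequent in Tregs, at 69.6%, 61.7% and 73.9%. Of the cells labelled Treg, 81.7% had Foxp3.

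**Figure D1:**
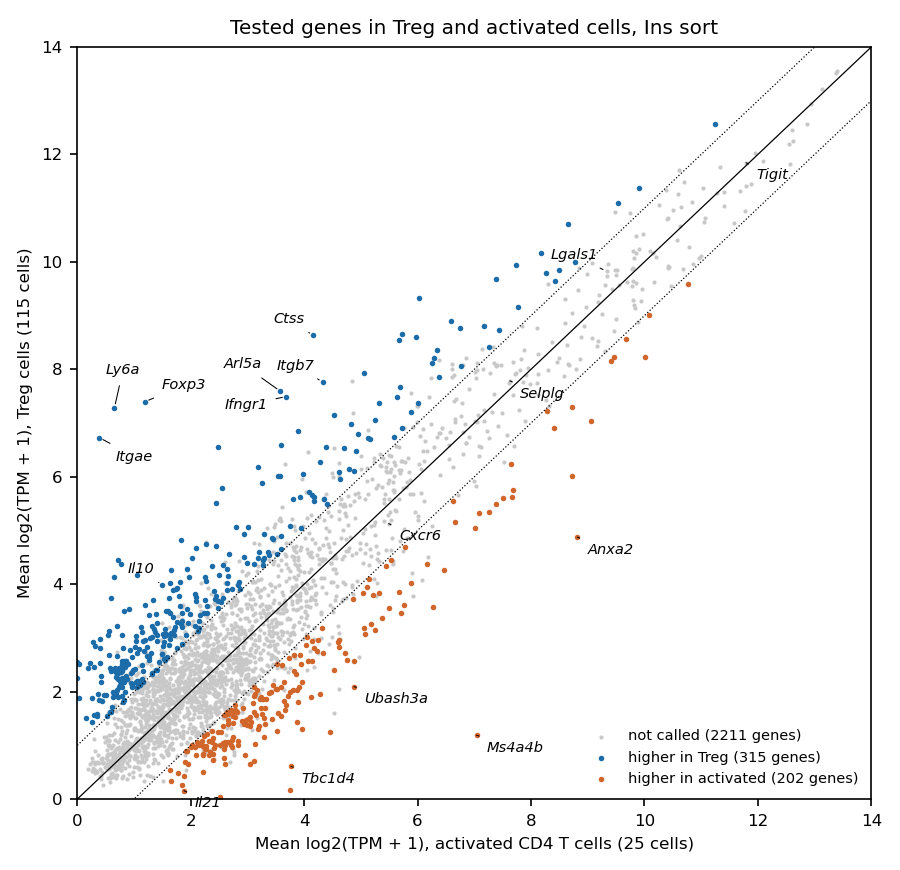
Each point is 1 of 2728 genes, plotted by its mean log2(TPM + 1) over 25 activated cells (x axis) and 115 Treg cells (y axis) of the Ins sort, with dotted lines at a difference of 1 and colours for called genes. Most genes lie between the dotted lines, Ly6a, Itgae and Foxp3 stand far above the diagonal, and Ms4a4b stands far below it.

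The lineage factor and 2 surface genes separated the classes most. Foxp3 (chromosome X, 7573644 to 7595245, plus strand, GRCm38) was detected in 94 of 115 Tregs (81.7%, interval 73.5% to 88.3%) and 4 of 25 activated cells (16.0%, 4.54% to 36.1%). Its lowest, median and highest levels were 0, 489.6 and 2032 TPM in Tregs and 0, 0 and 887 TPM in activated cells, so the ranges overlapped and the median activated cell held none. Mean levels were 580.1 ± 525 TPM and 75.5 ± 225 TPM, and the log2 difference was 6.20, with 3.91 to 7.92 over the blocks. Exons of Foxp3 overlap exons on the other strand (Ccdc22, Gm36995 and Ppp1r3f), and the labels do not say whether counting used strand.

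Itgae, the alpha chain of CD103 (chromosome 11, 73090583 to 73147446, plus strand), gave the steadiest large difference, 6.34 with 6.27 to 6.64 over the blocks. The counts were 84 of 115 Tregs (73.0%, 64.0% to 80.9%) and 1 of 25 activated cells (4.00%, 0.101% to 20.4%). The lowest, median and highest Treg levels were 0, 447.2 and 4467 TPM, while all but 1 activated cell were below 1 TPM and the highest held 494 TPM. Its partner Itgb7 (chromosome 15, 102215995 to 102231944, minus strand), which also pairs with Itga4 in gut homing, was detected in 83.5% of Tregs (75.4% to 89.7%) and 44.0% of activated cells (24.4% to 65.1%), a difference of 3.43 (1.51 to 5.77 over blocks). Both chains were found together in 71 of 115 Tregs and 1 of 25 activated cells. Itga4, the alpha 4 chain, lay on the other side, at 48.7% of Tregs and 68.0% of activated cells with a difference of -1.42, a call lost without block 3 (-0.86) and with a pseudocount of 10 (-0.77).

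Ly6a, which encodes the surface protein Sca-1 (chromosome 15, 74994877 to 74998031, minus strand), had the largest difference of the named genes, 6.63 (5.38 to 7.42 over blocks). It was detected in 67.0% of Tregs (57.6% to 75.4%) and 12.0% of activated cells (2.55% to 31.2%), and its mean was 3005 ± 5058 TPM against 32.7 ± 157 TPM. The lowest, median and highest Treg levels were 0, 1095 and 25181 TPM, and the highest activated cell held 786 TPM. The gene was thus detected in 77 of 115 Tregs and below 1 TPM in the rest. Ly6a belongs to a family of close copies, and reads could be divided among its members. Among the T follicular helper cells of the sort 19.7% had it, and of the HIP activated cells 4.92%.

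**Figure D2:**
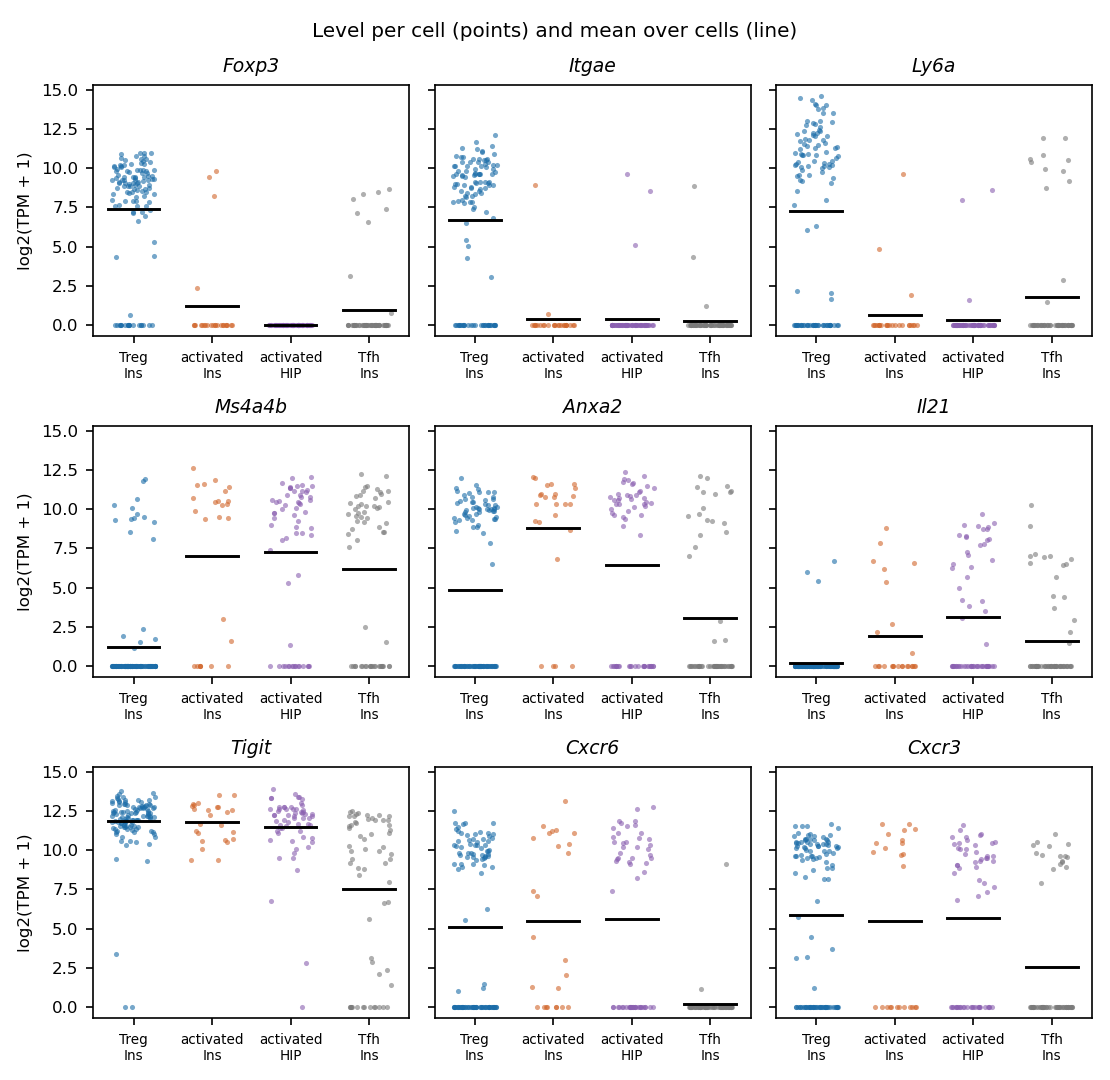
Each point is a cell, at its log2(TPM + 1) for the gene named above the panel, and the black line is the mean over the cells of the class (115 Treg, 25 Ins activated, 61 HIP activated and 61 Ins T follicular helper cells; sideways position is random). Foxp3, Itgae and Ly6a are mostly high in Treg cells, Ms4a4b, Anxa2 and Il21 are more often detected in activated cells, and Tigit, Cxcr6 and Cxcr3 have means close together in Treg and activated cells.

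Cell by cell, the 3 leading genes were often found together in the Treg class, where each was common. Foxp3 and Itgae were both detected in 69 Tregs and 1 activated cell, all of Foxp3, Itgae and Ly6a in 45 Tregs and no activated cell, and none of the 3 in 3 Tregs and 19 activated cells. Of the 21 Tregs with no Foxp3 detected, 15 had Itgae (71.4%, 47.8% to 88.7%), against 69 of 94 Foxp3-detected Tregs (73.4%, 63.3% to 82.0%). Ly6a was in 17 of the 21 (81.0%, 58.1% to 94.6%) and 60 of the 94 (63.8%, 53.3% to 73.5%), and Ctss in 19 and 79. Within Tregs, neither Itgae nor Ly6a was thus clearly more frequent where Foxp3 was detected. Fewer genes were detected in these 21 cells, 1746 at the median against 2076. Helios (Ikzf2), a factor of many Tregs, was found in 9 of the 21 and 59 of the 94, Arl5a in 15 and 89, and Pglyrp1 in 7 and 45. Of the 4 activated cells with Foxp3, 1 had Itgae, 1 had Ly6a, 1 had Ms4a4b and all 4 had Anxa2, Ctss and Cxcr6. Since the classes are taken as cut from these values, the joint presence of these genes in a class is no independent finding.

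Other genes of the Treg program were higher in Tregs by smaller margins, and several were common in activated cells too. Of the 20 genes in a Treg identity list, 12 were compared, 9 were called higher in Tregs and 1, Socs2, higher in activated cells, with a median difference of 1.96 against 0.11 over all genes compared, or 1.38 over the 20 genes. Of the called genes, Foxp3, Itgae, Il10, Ikzf2 and Il2ra entered the comparison through the Treg class alone, and Socs2 through the activated class alone. The list was drawn up with earlier results on these cells known. Besides Foxp3 and Itgae, the calls were Tnfrsf18 and Tnfrsf4, the costimulatory receptors GITR and OX40, Il10, Ikzf2, Il2ra, the folate receptor family gene Folr4 and the actin-capping gene Capg. Tnfrsf18 was detected in 90.4% of Treg, 76.0% of Ins activated and 73.8% of HIP activated cells and Tnfrsf4 in 87.8% of Treg, 72.0% of Ins activated and 68.9% of HIP activated cells, with differences of 2.19 and 2.30. Folr4, found in 94.8% and 80.0% of Tregs and activated cells, differed by 2.00. With a pseudocount of 10 the calls of Ikzf2 and Il2ra were lost, at 0.93 and 0.73, and in cells with 1500 to 3000 genes that of Capg (1.48). A median of 9 list members was detected per Treg, 5 per activated cell of either sort and 3 per T follicular helper cell.

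Il2ra, which gives the interleukin 2 receptor its high affinity, was sparse even in Tregs, at 40 of 115 (34.8%, 26.1% to 44.2%), and was found in 2 of 25 activated cells (8.00%, 0.984% to 26.0%). Its mean level was 34.9 ± 90.7 TPM against 4.85 ± 22.4 TPM. The shared receptor chains Il2rb and Il2rg were found in most cells of both classes and were chosen after their values were seen, Il2rb in 90.4% and 76.0% and Il2rg in 93.0% and 92.0%, and neither was called. Ikzf2 was detected in 59.1% of Tregs (49.6% to 68.2%) and 24.0% of activated cells (9.36% to 45.1%), with a difference of 1.91 (1.13 to 3.52 over blocks). Its relative Ikzf4 differed by 0.99 and was not called.

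Ctla4, which encodes the inhibitory receptor of the Treg program, was not called. It was detected in 78.3% of Tregs (69.6% to 85.4%) and 64.0% of activated cells (42.5% to 82.0%), and its mean level was 858 ± 997 TPM against 920.1 ± 1632 TPM. The log2 difference was 1.33 but ran from -0.61 to 5.63 over the blocks, and the shares differed by 14.3 percentage points (interval -3.58 to 34.8). Both classes exceeded the T follicular helper cells, at 32.8%. Icos, a costimulatory receptor of Tregs and helper cells, was also not called, with 73.9% and 48.0% detected and block differences of -0.45 to 4.40. Nrp1, a marker of thymus-derived Tregs chosen after its values were seen, was found in 9 of 115 Tregs and 6 of 25 activated cells.

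The next leading genes outside the Treg list were of several kinds, grouped here by hand and not in order of size, with cathepsin genes first. Ctss, a protease that trims the MHC class II invariant chain in antigen-presenting cells (chromosome 3, 95526786 to 95556403, plus strand), was detected in 85.2% of Tregs (77.4% to 91.1%) and 48.0% of activated cells (27.8% to 68.7%), at mean levels of 1375 ± 1196 TPM and 451.98 ± 688 TPM. Its lowest, median and highest levels were 0, 1162 and 5661 TPM in Tregs and 0, 0 and 2588 TPM in activated cells, and its difference was 4.48 (2.92 to 6.82 over blocks). Ctsw, a cathepsin of cytotoxic lymphocytes, was detected in 53 of 115 Tregs and 2 of 25 activated cells, with a difference of 3.74. Exons of Ctsw overlap those of Fibp on the other strand. The cathepsin Ctsa, chosen after its values were seen, had 76.5% of Tregs and 44.0% of activated cells, with intervals that did not overlap. Of the T follicular helper cells, 49.2% had Ctss and 27.9% had Ctsw.

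Ecm1, which encodes a secreted matrix protein, was detected in 53 of 115 Tregs (46.1%) and 2 of 25 activated cells (8.00%), with means of 358 ± 599.8 TPM and 23.3 ± 80.8 TPM. Pglyrp1, a secreted peptidoglycan-binding protein, showed nearly the same split, 52 of 115 against 2 of 25, with means of 575 ± 929 TPM and 75.0 ± 298 TPM. Neither gene was common in the HIP activated cells, at 9.84% and 11.5%. Il1r2, the decoy receptor of interleukin 1, was chosen after its values were seen: 30 of 115 Tregs had it (26.1%) and 0 of 25 activated cells, for which the limit of 3 cells is 12.0% (exact upper end 13.7%). Csf1, the macrophage growth factor, was found in 32.2% of Tregs and 8.00% of activated cells and differed by 1.39, a call lost with a pseudocount of 10 (0.73).

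The rest of the 15 leading genes were of mixed kinds. Arl5a, a small GTPase of the Golgi, was detected in 90.4% of Tregs (83.5% to 95.1%) and 40.0% of activated cells (21.1% to 61.3%). Ifngr1, the ligand-binding chain of the interferon gamma receptor, was detected in 80.0% (71.5% to 86.9%) and 48.0% (27.8% to 68.7%), with a median level among detecting cells of 1066 TPM in Tregs and 369 TPM in activated cells. Each of these 2 genes was found in 14.8% of T follicular helper cells. Matk, a kinase that restrains Src family kinases, was detected in 46.1% and 12.0% of Tregs and activated cells, the p53 target Rbm38 in 64.3% and 32.0%, and the interferon-induced gene Ifi27l2a in 84.3% and 56.0%. The casein kinase gene Csnk1a1 (45.2% and 8.00%) and the proteasome subunit Psmb3 (56.5% and 24.0%) were detected in HIP activated cells at 49.2% and 55.7%, with intervals of 36.1% to 62.3% and 42.4% to 68.5%. For those 2 genes the Ins activated class was low while the other activated class was not.

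**Figure D3:**
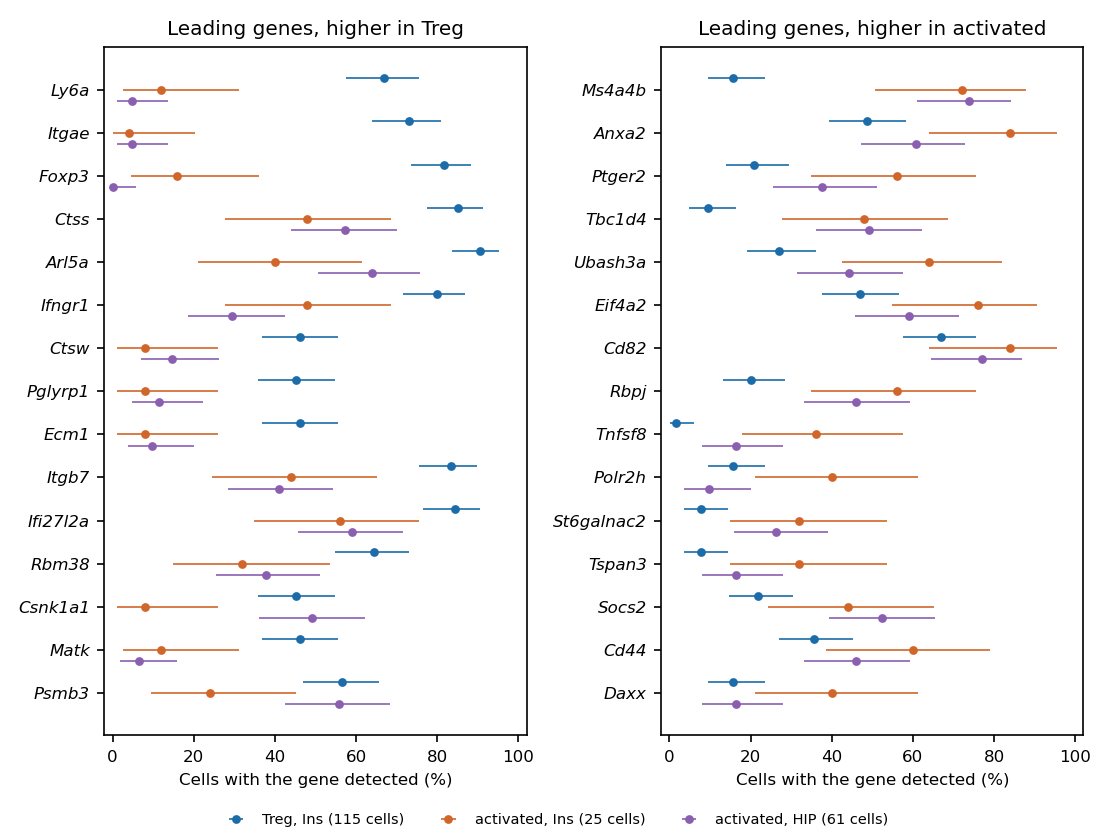
Share of cells with each leading gene detected (x axis, percent) for Ins Treg, Ins activated and HIP activated cells, with points for the share and bars for its exact 95% interval. On the Treg side the Ins activated and HIP activated points mostly lie together and left of the Treg points, with Csnk1a1 and Psmb3 as exceptions, and on the activated side Ms4a4b has both activated classes above 70%.

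On the activated side 1 gene stood apart from the rest. Ms4a4b, a T cell membrane protein of the CD20 family that modulates activation (chromosome 19, 11443553 to 11467055, plus strand), was detected in 18 of 25 activated cells (72.0%, 50.6% to 87.9%) and 18 of 115 Tregs (15.7%, 9.55% to 23.6%). The lowest, median and highest levels were 0, 954 and 6466 TPM in activated cells and 0, 0 and 3950.3 TPM in Tregs, so the ranges overlapped and the median Treg held none. Means were 1319 ± 1555 TPM and 141 ± 551 TPM, and the difference was -5.85 (-6.66 to -4.58 over blocks). Among HIP activated cells it stood at 73.8% (60.9% to 84.2%), and in 63.9% of T follicular helper cells, so the Tregs had the lowest share of these 4 classes. The gene has close relatives in a cluster, and reads could be divided among them.

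Anxa2, a calcium-dependent membrane-binding protein (chromosome 9, 69453620 to 69491795, plus strand), was detected in 84.0% of activated cells (63.9% to 95.5%) and 48.7% of Tregs (39.3% to 58.2%), at means of 1572 ± 1273 TPM and 602 ± 810.3 TPM. Its lowest, median and highest levels were 0, 1299 and 4269 TPM in activated cells and 0, 0 and 4149 TPM in Tregs, and the difference was -3.94 (-5.25 to -1.77 over blocks). Ms4a4b and Anxa2 were both detected in 15 of 25 activated cells and 12 of 115 Tregs. Exons of Anxa2 overlap those of Gm16144 on the other strand. Of HIP activated cells 60.7% had Anxa2 and of T follicular helper cells 34.4%.

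Genes of several kinds with intervals that did not overlap followed. Ptger2, a prostaglandin E2 receptor, was detected in 56.0% of activated cells (34.9% to 75.6%) and 20.9% of Tregs (13.9% to 29.4%), with block differences of -5.66 to -0.13. Tbc1d4, a regulator of glucose transporter traffic, was detected in 48.0% of activated cells (27.8% to 68.7%) and 9.57% of Tregs (4.87% to 16.5%). Ubash3a, a phosphatase family protein that dampens T cell receptor signals, was detected in 64.0% (42.5% to 82.0%) and 27.0% (19.1% to 36.0%), and Rbpj, the DNA-binding partner of Notch, in 56.0% (34.9% to 75.6%) and 20.0% (13.1% to 28.5%). All 4 were lower in Tregs in each of the 3 blocks, but Ptger2 was not called in the cells with 1500 to 3000 genes detected. Tbc1d4 was found in 49.2% of HIP activated and 65.6% of T follicular helper cells, so Tregs had the lowest share of these classes too. Thy1, a pan-T-cell surface protein chosen after its values were seen, was detected in 92.0% of activated cells and 65.2% of Tregs, and its intervals did not overlap either.

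The remaining leading genes on that side, Tnfsf8 aside, were Eif4a2, Cd82, Polr2h, St6galnac2, Tspan3, Socs2, Cd44 and Daxx. Cd44 and Daxx were not called in the cells with 1500 to 3000 genes, St6galnac2 without block 1 and Tspan3 without block 2. Cd44, the hyaluronan receptor used to mark antigen experience, was detected in 60.0% of activated cells (38.7% to 78.9%) and 35.7% of Tregs (26.9% to 45.1%), at means of 206 ± 266 TPM and 91.8 ± 169 TPM. Its intervals overlapped, and its block differences ran from -4.55 to -0.38. The tetraspanin Cd82 was found in 84.0% and 67.0%. Socs2, a feedback inhibitor of cytokine signals, was found in 44.0% of activated cells, 21.7% of Tregs and 52.5% of HIP activated cells, but in 1.64% of T follicular helper cells. The coreceptor Cd4 was detected in 96.0% of activated cells (79.6% to 99.9%) and 82.6% of Tregs (74.4% to 89.0%), with a difference of -2.02 and the narrow block range of -2.30 to -1.75. Mean Cd4 levels were 1149.9 ± 1101 TPM and 541 ± 538 TPM.

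Cytokine genes were called in both directions. Il10 (chromosome 1, 131019845 to 131024974, plus strand) was detected in 52 of 115 Tregs (45.2%, 35.9% to 54.8%) and 5 of 25 activated cells (20.0%, 6.83% to 40.7%), with a difference of 2.48 (2.02 to 2.63 over blocks). Il21, which supports B cell help (chromosome 3, 37222759 to 37232636, minus strand), was detected in 8 of 25 activated cells (32.0%, 14.9% to 53.5%) and 3 of 115 Tregs (2.61%, 0.541% to 7.43%), and its intervals did not overlap. Both cytokines together were detected in 2 Tregs and 3 activated cells. Tnfsf8, the CD30 ligand, was found in 9 of 25 activated cells (36.0%, 18.0% to 57.5%) and 2 of 115 Tregs (1.74%, 0.211% to 6.14%), where its highest level was 10.1 TPM against 936 TPM in activated cells. Its call was lost without block 1 and in the cells with 1500 to 3000 genes, where the difference was -1.25 and -2.34, and that of Il21 was lost without block 2 and with a pseudocount of 10, where it was -1.17 and -0.86. Lta and Ltb, the lymphotoxin chains, were detected in 6 of 25 and 24 of 25 activated cells and 8 of 115 and 98 of 115 Tregs. Lta, at -1.42, was under the limit for comparison, and Ltb, at -1.07, was called but lost its call with a pseudocount of 10, with equal weight per block, without block 1, without block 3 and in cells with 1500 to 3000 genes.

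Il10 was not confined to Tregs. Among HIP activated cells 34.4% had it (22.7% to 47.7%), with Foxp3 in 0 of 61 (limit of 3 cells 4.92%, exact upper end 5.87%). In those cells 12 had both Il10 and Il21, while among T follicular helper cells 3.28% had Il10 and 27.9% had Il21. In Tregs Il10 was found beside Foxp3 in 44 of 52 cells that had it. The effector cytokine Ifng was rare in both Ins classes, 3 of 115 Tregs and 2 of 25 activated cells, against 15 of 61 HIP activated cells. Of the 18 cytokine and tumour necrosis factor ligand genes listed, 5 were compared. Il10 and Csf1 were called higher in Tregs, and both entered through the Treg class alone. Il21, Ltb and Tnfsf8 were called higher in activated cells, and Il21 and Tnfsf8 entered through the activated class alone. The median of the 5 was -1.07, or -0.26 over the 14 in the table.

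The classes had much in common. Of 679 genes that 50% or more of each class had, 382 (56.3%) differed by less than 0.5. Since every cell in the data set was sorted as antigen-specific and none was annotated as resting, the shared state was described against the T follicular helper cells of the same sort. A gene was called shared when the 2 classes differed by less than 0.5 and both lay at least 1 above, or both at least 1 below, that class. By this rule 44 of the 679 genes (6.48%) were shared above and 12 (1.77%) shared below. Both distances use the same 61 T follicular helper cells. Without the limit on detection 187 genes met the rule, and with a limit of 10% of each class 159 did. Of the 10 leading genes above, 3, 7 and 5 met it without block 1, 2 and 3, and Tigit alone met it in each setting tried.

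The inhibitory receptor gene Tigit (chromosome 16, 43648867 to 43664146, minus strand) was shared most steadily. It was detected in 113 of 115 Tregs (98.3%, 93.9% to 99.8%) and all 25 activated cells (100%, 86.3% to 100%), against 77.0% of T follicular helper cells (64.5% to 86.8%). Lowest, median and highest levels were 0, 4598 and 14166 TPM in Tregs, 653, 4816 and 11794 TPM in activated cells and 0, 879 and 5771 TPM in T follicular helper cells. Means in the pair were 5105 ± 2883 TPM and 4768 ± 3288 TPM, a difference of 0.05 with -0.29 to 0.29 over the blocks. The shares differed by -1.74 percentage points (interval -6.12 to 11.6). The long noncoding RNA AW112010, which the naming rule leaves out as a gene model, was chosen after its values were seen and had the same profile, with 98.3% and 100% of the pair and 75.4% of T follicular helper cells.

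Chemokine receptors of inflamed tissue also met the shared rule, but not in every setting. Cxcr6, the receptor of the membrane-bound chemokine CXCL16 (chromosome 9, 123806475 to 123811760, plus strand), was detected in 53.0% of Tregs (43.5% to 62.4%) and 68.0% of activated cells (46.5% to 85.1%), but in 2 of 61 T follicular helper cells (3.28%, 0.400% to 11.3%). Its lowest, median and highest levels were 0, 46.8 and 5802 TPM in Tregs and 0, 20.8 and 9131 TPM in activated cells, and the Treg minus activated difference varied from -3.60 to 1.68 over blocks. Its place among the shared genes was lost without any 1 of the blocks, with differences of -0.51, 0.95 and -1.73. Cxcr3, the receptor of interferon-induced chemokines (chromosome X, 101731535 to 101734269, minus strand), was detected in 61.7% of Tregs (52.2% to 70.6%), 52.0% of activated cells (31.3% to 72.2%) and 26.2% of T follicular helper cells (15.8% to 39.1%). Cxcr3 lost its place without block 1 (0.69), with equal weight per block (0.54) and with a pseudocount of 0.1 (0.72). Both receptors were found together in 39 of 115 Tregs and 10 of 25 activated cells, and in 0 of 61 T follicular helper cells, with the same limits of 4.92% and 5.87%. Selplg, the selectin ligand PSGL-1, was detected in 80.9% and 80.0% of the pair and 32.8% of T follicular helper cells. Cxcr3 and Selplg differed within the pair by 9.74 percentage points (interval -10.4 to 30.0) and 0.870 percentage points (interval -12.9 to 21.0), so moderate differences in either direction cannot be told from none.

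Lgals1, the immunomodulatory lectin galectin 1, lay 5.48 above T follicular helper cells in Tregs and 5.00 above them in activated cells on the log2 scale. It was detected in 91.3% and 88.0% of the pair against 45.9%. The other named shared genes were the zinc-finger protein gene Crip1, the endoplasmic reticulum genes Arl6ip1, Ppib and Reep5, and Sdf4, a calcium-binding protein of the Golgi. They lay 3.34, 3.17, 2.98, 3.24 and 3.67 above in Tregs and 3.12, 2.99, 3.01, 2.84 and 3.92 above in activated cells. The factor Maf, which promotes Il10 in several T cell subsets, and the receptor component Cd3d also met the rule and were chosen after their values were seen. Maf was detected in 59.1% and 56.0% of the pair and 32.8% of T follicular helper cells.

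**Figure D4:**
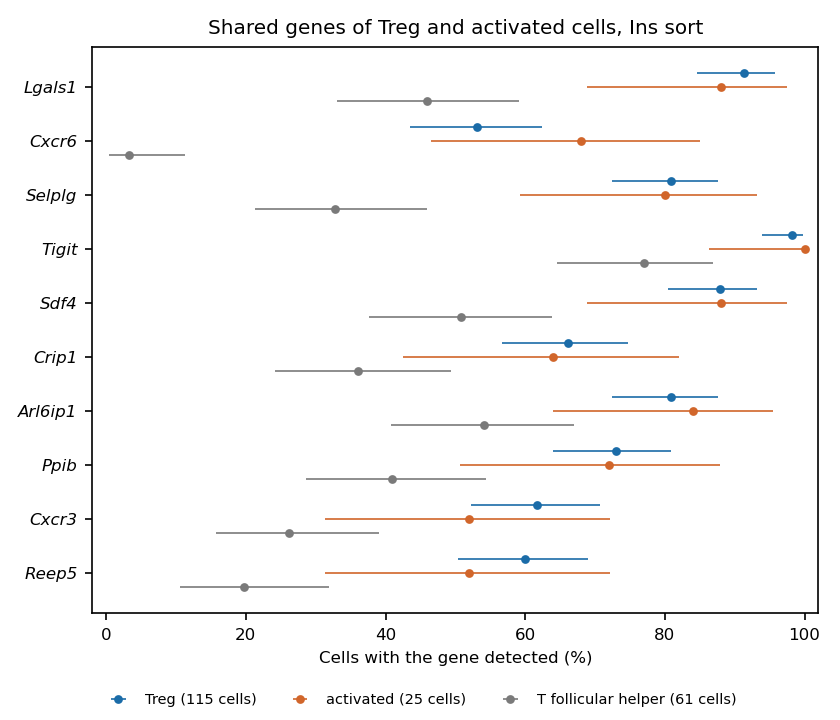
Share of cells with each of the 10 leading shared genes detected (x axis, percent) in Treg, activated and T follicular helper cells of the Ins sort, with points for the share and bars for its exact 95% interval. Treg and activated points lie side by side with overlapping bars for every gene shown, and T follicular helper points lie lower, at 3.28% for Cxcr6.

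The 12 shared genes below the T follicular helper class were the actin-binding peptide gene Tmsb10, the RNA-binding genes Ddx5 and Hnrnpf, the glycolytic enzyme Aldoa, Gltp, Set and 6 ribosomal protein genes that the naming rule leaves out. Of the 6 named, 1 met the rule without block 1, 4 without block 2 and 0 without block 3, and with a pseudocount of 10 it was 1 of 6 and 5 genes in all. In cells with 1500 to 3000 genes 25 genes met it. Tmsb10 had the largest distance, -2.78 in Tregs and -2.65 in activated cells, while still detected in 77.4% and 80.0% of the pair. Tcf7, the factor of naive and follicular helper cells, was too rare in the pair for the rule. Only 3 of 115 Tregs (2.61%, 0.541% to 7.43%) and 3 of 25 activated cells (12.0%, 2.55% to 31.2%) had it, against 77.0% of T follicular helper cells (64.5% to 86.8%).

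Of 12 listed genes of naive and recirculating T cells, 10 were under the limit for comparison, as were 79.9% of all genes, and the other 2, S1pr1 and Foxp1, were not called. S1pr1, the receptor used to leave lymph nodes, was found in 17.4% of Tregs, 28.0% of activated and 27.9% of T follicular helper cells. The survival receptor Il7r was detected in 7 of 115 Tregs and 2 of 25 activated cells, and the factor Lef1 in 10 of 115 and 6 of 25, against 27.9% of T follicular helper cells. Ccr7, the lymph node chemokine receptor, was found in 2 of 115 Tregs (1.74%, 0.211% to 6.14%) and 5 of 25 activated cells (20.0%, 6.83% to 40.7%), with intervals that overlapped. The follicular helper genes Bcl6 and Cxcr5 were also low in the pair, Bcl6 at 12.2% and 12.0% and Cxcr5 at 11.3% and 8.00%, against 39.3% and 45.9% of T follicular helper cells. The division marker Mki67 was found in 6 of 115 Tregs and 1 of 25 activated cells, in a data set where dividing cells have a class of their own.

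Genes of the antigen receptor apparatus were considered next. Of 11 genes of the T cell receptor complex compared, 10 (against 81.0% of all genes compared) were not called and 1, Cd4, was higher in activated cells, with a median difference of 0.07. Cd3e was detected in 99.1% and 96.0%, at means of 1123 ± 865 TPM and 1299 ± 889.5 TPM, and differed by 0.07 with -0.47 to 0.37 over blocks. Of 14 early response genes of the receptor, 11 were under the limit for comparison, a share close to that of all genes, and the median over all 14 was 0.06. Egr1 was detected in 29 of 115 Tregs and 2 of 25 activated cells, Irf8 in 31 of 115 and 2 of 25, and Nfkbia, the inhibitor of NF-kappa B, in 74 of 115 and 13 of 25, and these 3 were called higher in Tregs. Egr1 and Irf8 entered the comparison through the Treg class alone, Egr1 lost its call without block 2 and with a pseudocount of 10 (0.84), and Nfkbia lost it with a pseudocount of 10 (0.81). Other members lay the other way, such as Egr2 in 5 of 115 Tregs and 3 of 25 activated cells. Nr4a1, just under the limit for comparison, was detected in 28 of 115 and 2 of 25, and Cd69, the early activation antigen, in 12 of 115 and 2 of 25. Egr1 is also induced by tissue handling, and of 6 stress and dissociation genes compared Dusp1 and Zfp36 were called higher in Tregs and Ier2 higher in activated cells, the last call lost with a pseudocount of 10 and in cells with 1500 to 3000 genes. Dusp1 was found in 40.0%, 20.0% and 45.9% of Treg, Ins activated and HIP activated cells. The part of handling in the 3 calls was not tested.

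Inhibitory receptor genes were called in both directions. Lag3, a receptor for MHC class II, was detected in 98.3% and 92.0% of the pair and was called higher in Tregs at 1.49 (0.32 to 2.08 over blocks), with means of 4215 ± 3090.1 TPM and 2969 ± 2342 TPM. In cells with 1500 to 3000 genes that call was lost, at 0.91. Pdcd1, the gene of PD-1, lay the other way at -2.13 but ran from -5.47 to 0.67 and was not called, with 40.9% of Tregs (31.8% to 50.4%) and 60.0% of activated cells (38.7% to 78.9%). Of 12 genes compared in the list of inhibitory receptors and anergy, 2 were called higher in Tregs (Lag3 and Folr4) and 1, Cd200, higher in activated cells, with a median of -0.35, or -0.08 over the 16 listed. The other 9 were not called, as were 81.0% of all genes compared. Entpd1 and Havcr2, which encode CD39 and TIM-3, were chosen after their values were seen. Entpd1 was found in 41.7% and 24.0% of the pair and Havcr2 in 23.5% and 8.00%, against 4.92% and 0% of T follicular helper cells, the last of which is 0 of 61 cells.

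Type 1 effector genes were present on both sides. Tbx21, which encodes the factor T-bet, was detected in 32 of 115 Tregs (27.8%, 19.9% to 37.0%) and 2 of 25 activated cells (8.00%, 0.984% to 26.0%) and was called at 1.78, though its intervals overlapped. Foxp3 and Tbx21 were found in the same cell in 27 Tregs, and Foxp3 and Cxcr3 in 60. Stat4, which relays interleukin 12, was called higher in activated cells, at 40.0% against 19.1%, a call lost with a pseudocount of 10 (-0.89). Nkg7, a granule protein, and the chemokine Ccl5, both chosen after their values were seen, were common to the pair. Nkg7 was detected in 69.6% and 64.0% of Tregs and activated cells against 9.84% of T follicular helper cells, and Ccl5 in 34.8% and 32.0% against 8.20%. Gzmb, the serine protease granzyme B, was found in 21 of 115 Tregs and 1 of 25 activated cells. Of 8 type 1 and cytotoxic genes compared, 1 was called in each direction, beside 11.5% and 7.4% of all genes compared. Tbx21 entered through the Treg class alone and Stat4 through the activated class alone. The median of the 8 was 0.40, or -0.13 over the 20 listed.

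Unlike Cxcr3 and Cxcr6, the chemokine receptor gene Ccr2 was called higher in Tregs. This receptor of monocyte chemoattractant proteins was detected in 60.0% of Tregs (50.4% to 69.0%) and 36.0% of activated cells (18.0% to 57.5%), a difference of 2.58 (1.89 to 3.18 over blocks). Ccr8, a receptor of tissue Tregs chosen after its values were seen, was detected in 52.2% and 36.0% but was not called, since its block differences ran from -2.76 to 3.64. Both were rare in T follicular helper cells, at 8.20% and 4.92%. Of 12 adhesion and chemokine receptor genes compared, 4 were called higher in Tregs and 2 higher in activated cells (Itga4 and Cd44), with a median of 0.28, or 0.20 over the 17 in the table. Among 14 cytokine receptor and STAT pathway genes, 4 were higher in Tregs (Ifngr1, Socs3, Il2ra and Ifnar1) and 2 in activated cells (Socs2 and Stat4), with a median of 0.90, or 0.61 over the 23 listed. Ifnar1 lost its call with a pseudocount of 10, without block 3 and in cells with 1500 to 3000 genes, and Socs3 in the last.

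Calls in the other gene lists were few and mostly in both directions. Of 14 activation genes compared, Tnfrsf4, Cd5 and Cd2 were called higher in Tregs and Cd82, Cd44 and Ltb higher in activated cells. Cd2 lost its call without block 1 and with either other pseudocount. Of 11 follicular helper genes, Angptl2 and Sh2d1a were higher in Tregs and Cd200, Il21, Tox2 and Gpm6b higher in activated cells, with a median of -0.83, or -0.05 over the 17 in the table. Each of these 4 activated calls was lost in some setting, Cd200 and Gpm6b without block 1 (-0.84 and -0.99) and Tox2 without block 3 (-0.61). In oxidative phosphorylation 5 of 16 genes were higher in Tregs (Sdhb, Cox5a, Cox6c, Atp5o and Uqcrc1) and Cycs was higher in activated cells, with a median of 0.49. Without block 1 Cox6c, Atp5o and Uqcrc1 were not called (0.96, 0.98 and 0.47), nor was Cycs without block 2 (-0.48). In glycolysis Ldha was higher in Tregs and Eno1, Hif1a and Pgam1 higher in activated cells, of 13 compared, but Ldha and Pgam1 were not called with a pseudocount of 10 (0.93 and -0.93), and Ldha was not without block 2 either. Of 5 interferon response genes compared none was called, with a median of 0.61 (0.14 over the 15 listed), and of 4 cell division genes compared Tubb5 was called higher in activated cells, a call lost without block 3 (-0.50). For reference, 11.5% and 7.4% of all genes compared were called in the 2 directions.

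**Figure D5:**
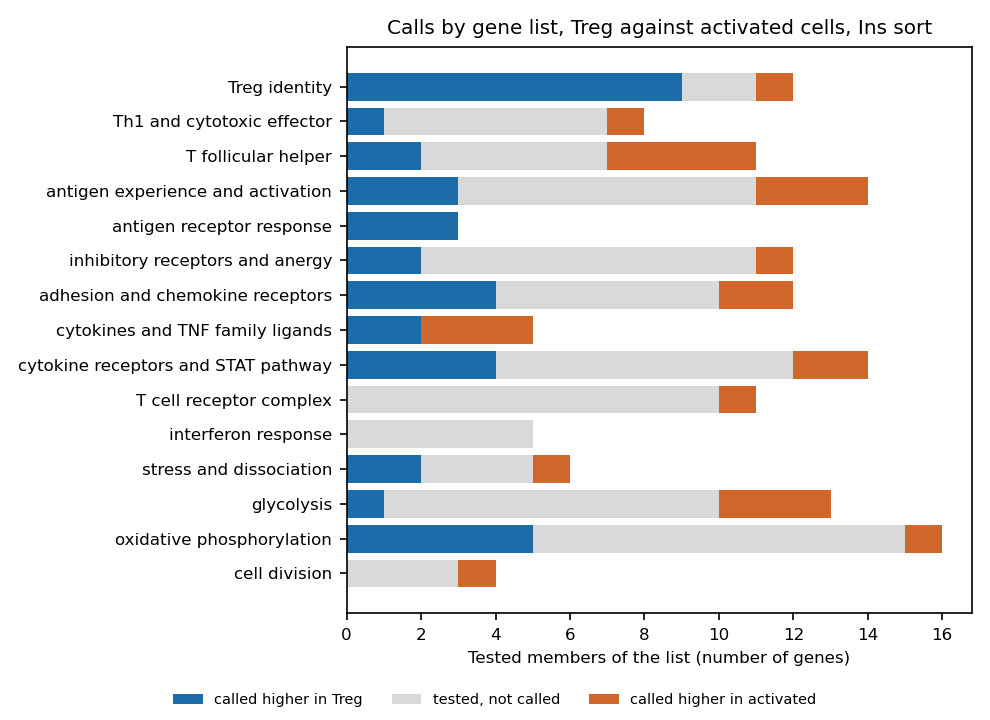
For each gene list with at least 3 members compared, bars count the members called higher in Treg cells, not called, and called higher in activated cells (x axis, number of genes). The Treg identity list has 9 of 12 members called higher in Treg cells, some of which entered the comparison through that class alone. Most other lists hold calls in both directions beside a larger part that was not called.

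Markers of other islet and immune cells were checked in both classes. The B cell genes Ms4a1 and Cd79a were in no cell of the pair. Other genes of the B cell list were present: Cd22 in 22 Tregs and 6 activated cells, Prdm1 in 43 and 7, Xbp1 in 29 and 4, and Cd79b in 5 and 0. Cd8b1, of the CD8 coreceptor, was in 27 Tregs and 3 activated cells, and Cd8a in 4 and 1. Among myeloid genes Lyz2, C1qb, Fcer1g, Tyrobp and Flt3 were in no cell of the pair, while Cst3, the protease inhibitor cystatin C, was detected in 81.7% and 60.0% and was called higher in Tregs at 2.92. The summed level of the 8 myeloid genes present in the table had a median of 1463 TPM in Tregs (range 0 to 9443) and 256 TPM in activated cells (range 0 to 6577). The insulin gene Ins2 was detected in 15 of 115 Tregs and 1 of 25 activated cells. Of 11 acinar genes, the summed level was 0 at the median in both classes and reached 50220.3 TPM in 1 Treg and 3499.8 TPM among activated cells. No acinar, endocrine, endothelial or CD8 and natural killer cell marker reached the limit for comparison, so none could be called, and of the 2 B cell list genes compared none was called. The part of transcripts from other cells in the differences was not tested.

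The activated class of the HIP sort is set beside that of the Ins sort for the same genes. Both activated classes carry the same cluster number in the annotation, so they are taken as cut together from these values. Their likeness is thus no independent finding. Class and sort also cannot be told apart there from other differences between the sorts. Between the 2 activated classes 22.3% of the genes compared differed by at least 1, the largest difference was 3.46, and intervals were apart for 11 genes. Foxp3, Itgae and Ly6a were detected in 0%, 4.92% and 4.92% of HIP activated cells, so these 3 genes were rare in both activated classes. Of the leading activated genes, Ms4a4b was in 73.8%, Anxa2 in 60.7% and Socs2 in 52.5% of HIP activated cells. Tbc1d4 was in 49.2%, Rbpj in 45.9% and Ubash3a in 44.3% of them. Lower shares in the HIP class included Tnfsf8 at 16.4% (36.0% in Ins activated cells), Polr2h at 9.84% and Daxx at 16.4%. The HIP sort held 3 Tregs, of which 1 had Foxp3, 1 had Itgae, 2 had Ly6a, 2 had Ms4a4b and 3 had Tigit, too few to compare.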

How the data were processed

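Single cells from mouse islets were profiled by SMART-Seq2 and paired-end sequencing, per the labels' protocols. Most carry the label of a CD4 T cell class, and 21 cells of the Ins sort carry the label B cell. The submitters' processing notes name TopHat, Bowtie, RSEM 1.2.8 and the build mm10, without their roles. Earlier filters on cells or genes: not given in the sources used here. Natural log values were deposited by the authors for 13561 genes in 441 cells, and since exp(value) - 1 had a total of 100000 in each cell, TPM was computed as 10 times that quantity. The authors' deposited annotation gave class names and a number of detected genes, whose count equalled the values above 0 in 441 of 441 cells, as did class and sort between annotation and labels.

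TPM is relative to a total of 1000000, so read depth is unknown and a gene's level depends on the others. The highest correlation between any 2 of the 140 cells was 0.544. Cells were sorted singly and no doublet caller was run. With 1 sample per class and sort no test was made and no p-value is given. Shares carry exact Clopper-Pearson intervals (95%) and their differences Newcombe intervals. The call, the shared rule and the gene lists were chosen with earlier results of these data known. Genes named were the 15 largest called differences in each direction, up to 10 shared genes in each direction (leaving out receptor segments, unnamed gene models, ribosomal and mitochondrial genes), a set of lineage genes and 4 members of each list, and others are said to be chosen after their values were seen. Alternatives changed the pseudocount (0.1 and 10), the detection limit (above 0 and 10 TPM), the filter on detected share, the blocks, the range of genes per cell and the share of Rn45s. Gene coordinates came from GENCODE M21 (GRCm38), and promoters from RefSeq. Python 3.11.15 was used with numpy 2.4.6, pandas 2.3.3, scipy 1.17.1 and matplotlib 3.10.9, and the calling step was tested on simulated data.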

Additional observations from a re-analysis of the deposited data

How the results depend on the processing

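The 25 activated cells limit every comparison, since 1 cell is 4.00% of that class, and a transcript missed in capture counts as not detected. With a pseudocount of 10, 158 genes (5.79% of those compared) were called higher in Tregs and 88 (3.23%) higher in activated cells, of which 153 and 86 were among the 315 and 202 called with a pseudocount of 1. With 1 block left out the share of genes called ran from 14.3% to 19.5% for Tregs and from 11.7% to 15.1% for activated cells, where fewer signs had to match by construction, and 55 to 70 genes were shared. The count of shared genes, 56 in the report, was 187 with no limit on the detected share and 159 with a limit of 10% of each class, where more genes could enter by construction. The other settings kept each number of called genes within 1.5 times its reported value, and none of the named differences changed sign with a call. The 15 leading Treg genes were called in every setting run. Of the 15 leading activated genes, 13 were called without block 1, 14 without block 2 and 11 in cells with 1500 to 3000 genes. Of 74 named genes that were called, 32 were not called in at least 1 setting. Intervals of the detected share were apart for 56 genes at a detection limit of 10 TPM and for 59 at 1 TPM. No paired analysis was possible because the cells carry no replicate numbers that pair the classes and no test was made.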
